A study of Homo sapiens with 11 samples.

Results

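Inside many human genes a second gene is read in the opposite direction, and RNA leaves both strands of the same stretch of DNA. Of the sites of divergent transcription that the authors listed in Jurkat cells, 17765 lay inside such overlaps: 8773 of the 113601 sites on chromosomes 1 to 22 and X in the list from DMSO-treated cells, and 8992 of the 118385 in the list from dieldrin-treated cells. A site was counted as an overlap site when it lay more than 1 kb from every gene start and touched the body of at least 1 gene on each strand, with starts, ends and strands from the authors' deposited table of 44416 genes. No measured value entered this choice.

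Jurkat clone E6-1 is an established human T cell leukaemia line. The cells received the solvent DMSO, 100 µM of the organochlorine insecticide dieldrin, or 100 µM of phorbol myristate acetate (PMA), a phorbol ester that activates protein kinase C, in each case for 30 min. The site lists came from ribosomal RNA-depleted, stranded libraries, 1 from DMSO cells and 1 from dieldrin cells, whereas the gene levels came from 9 poly(A)-enriched libraries, 3 each with DMSO, dieldrin and PMA. The labels do not say whether libraries came from separate cultures, the depth behind either site list is unknown, and with 1 library per list no difference between the lists, or between classes of sites, was tested.

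Genes on opposite strands can converge, so that their 3′ ends overlap (tail-to-tail), diverge from overlapping 5′ ends (head-to-head), or lie one within the other (nested). Many long noncoding RNAs are antisense partners of this kind. At promoters and enhancers, by contrast, divergent transcription means that RNA polymerase II initiates in opposite directions from closely spaced start sites. A list of sites where both strands are read can hold either situation, and from these lists alone initiation within a gene and the overlap of a pair of longer transcripts cannot be told apart.

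Overlap sites were dense for the little sequence they can occupy. Sequence more than 1 kb from a start and inside genes of both strands came to 75.6 Mb, 2.56% of the sequence classified, and held 7.72% of the DMSO list (exact Clopper-Pearson 95% interval 7.57 to 7.88%) and 7.60% of the dieldrin list. That is 116 sites per Mb in the DMSO list and 119 in the dieldrin list. Sequence inside genes of 1 strand only, under the same distance rule, held 52.3 and 54.7 sites per Mb. Sequence within 1 kb of a start held 238 and 240, and intergenic sequence 8.67 and 9.40. Overlap sequence therefore stood between promoters and ordinary gene bodies in both lists, as the plot of density, sharing and length by position shows. All such intervals cover counting error only and treat sites as independent, although sites of 1 gene pair share their genes.

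**Figure D1:**
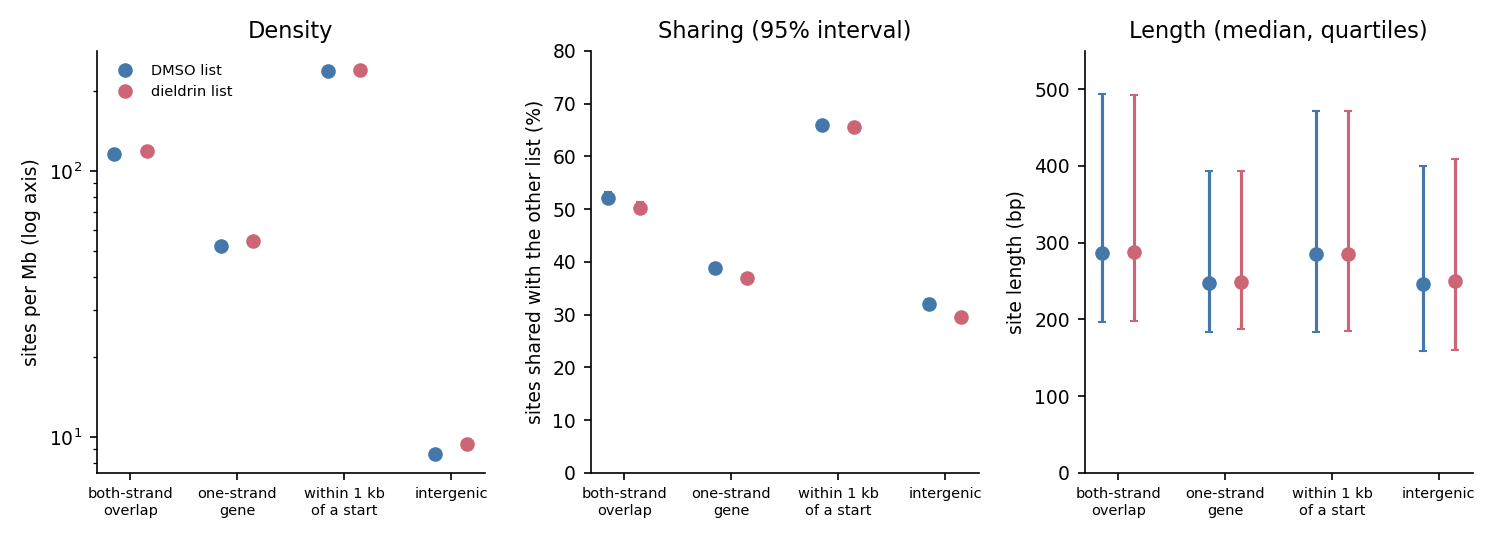
Site density (sites per Mb, log axis), percentage of sites shared with the other list (bars, 95% interval) and site length in bp (points, median; bars, quartiles) for overlap sites, sites in genes of 1 strand, sites within 1 kb of a gene start and intergenic sites, in the DMSO and the dieldrin list. Overlap sites had 116 and 119 sites per Mb and lay between the near-start and the 1-strand sites in density and in sharing.

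Overlap sites recurred between the lists in a higher share than other intragenic sites. In the DMSO list 4575 of 8773 overlap sites (52.1%, interval 51.1 to 53.2%) touched a site of the dieldrin list by at least 1 bp, and in the dieldrin list 4521 of 8992 (50.3%, interval 49.2 to 51.3%) touched a DMSO site. The same shares were 38.8% and 36.9% for sites in genes of 1 strand, 66.0% and 65.5% near starts, and 32.0% and 29.5% between genes. The order held by chromosome, where overlap sites exceeded 1-strand sites in 22 of 23 chromosomes in the DMSO list and in all 23 in the dieldrin list. Coverage moved with sharing: sites covered 4.84% and 5.04% of the overlap sequence against 1.73% and 1.84% of the 1-strand sequence, and the part of this in the sharing was not tested. When at least 50% of each site had to be common to both lists, the shares fell to 18.2% and 17.8% for overlap sites and 15.9% and 15.2% for 1-strand sites, and the gap between the classes was narrow.

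The sites were short, with a long upper tail. Their median length was 286 bp in the DMSO list (quartiles 197 and 494 bp) and 288 bp in the dieldrin list (198 and 492 bp), against 247 and 249 bp in genes of 1 strand. Sites of 1000 bp or longer made up 6.75% and 6.86% of overlap sites, compared with 2.18% and 2.38% of 1-strand sites. Longer sites were shared more often: the median was 374 bp for shared and 236 bp for unshared overlap sites in the DMSO list, and 375 and 240 bp in the dieldrin list. Within a length class the order remained: among sites over 400 and up to 1000 bp, 66.2% of overlap sites and 52.3% of 1-strand sites were shared in the DMSO list, and 62.8% and 50.5% in the dieldrin list. Above 1000 bp the shares were alike, at 86.3% and 89.3% in the DMSO list and 87.4% and 89.4% in the dieldrin list.

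Sites just outside and just inside the distance rule were set side by side. Sites inside genes of both strands with their nearest start more than 900 and up to 1000 bp away, just outside the rule, numbered 124 and 121, and 61.3% and 59.5% of them were shared. Those in the next 100 bp, just inside it, numbered 111 and 104, with 54.1% and 56.7% shared. Median lengths were 259 and 259 bp just outside and 253 and 327.5 bp just inside. The numbers are too small to tell whether sharing or length has an edge at the rule.

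The sites were then set against the abundance of both genes. For each site the gene of highest mean on each strand was taken, using the mean normalised count over all poly(A) libraries in the authors' deposited table. At the median DMSO site the stronger gene had a mean of 2655 and the weaker 50.3, and at the median dieldrin site 2566 and 46.9. Weighted by sequence, the overlap territory itself had medians of only 130 for the stronger and 0.935 for the weaker gene. The means are not divided by gene length, so they order genes only roughly. The stronger gene at overlap sites was about as abundant as the gene at 1-strand sites, whose medians were 2632 and 2567.

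Density and sharing rose with the weaker gene. Where it had a mean under 1, which was 51.6% of the overlap sequence, there were 21.9 sites per Mb in the DMSO list and 22.4 in the dieldrin list. This rose to 93.8 and 101 for means of 1 to 10, 300.1 and 307 for 10 to 100, 378 and 387 for 100 to 1000, and 372 and 366 above 1000, so the classes above 100 were close to each other. Sharing rose over the same classes from 29.8% and 29.6% to 64.8% and 63.3%. Sites of 1000 bp or longer went from 0.939% and 1.15% of the lowest class to 13.4% and 13.5% of the highest. In genes of 1 strand the density also rose with the mean, from 2.34 to 123 sites per Mb in the DMSO list, but sharing reached only 40.9% in the highest class and sites of 1000 bp or longer 2.29%. Coverage rose too, from 0.655% and 0.638% of the overlap sequence in the lowest class to 19.8% and 20.7% in the highest. Sites covered 4.07% and 4.30% of the highest 1-strand class. Sharing needs only 1 bp in common, and the part of coverage in these shares was not tested.

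The order remained when the stronger gene was held in a class. With its mean at 1000 or more, DMSO sites rose from 71.9 per Mb where the weaker gene was under 1 to 152, 319, 355 and 372 per Mb in the successive classes, and sharing from 29.7% to 64.8%. With the stronger gene under 1000 the density rose from 11.3 to 447 per Mb. The dieldrin list gave the same order, from 67.8 to 366 and from 12.8 to 448 per Mb. In genes of 1 strand with a mean above 1000 the density was 123 per Mb in the DMSO list and 127 in the dieldrin list. That was above the 71.9 and 67.8 of overlap sequence with a weaker mean under 1, and below the values of the higher classes. The weaker gene had a mean under 10 at 29.5% of DMSO and 30.5% of dieldrin sites. Sequence with a weaker mean under 1 made up 51.6% of the overlap sequence, and sequence with 1 to 10 a further 24.5%. A partner barely seen in poly(A) RNA was therefore less frequent at the sites than in the sequence. Both genes had means of 1000 or more at 1753 DMSO and 1721 dieldrin sites.

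**Figure D2:**
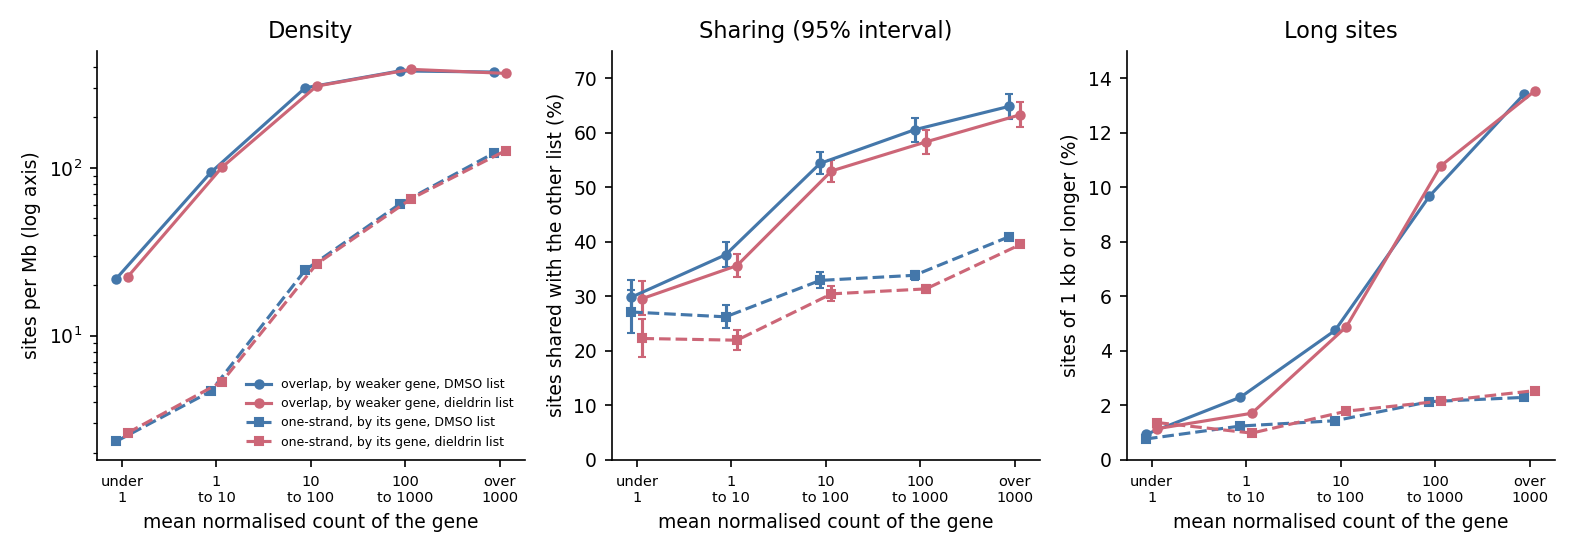
Sites per Mb (log axis), percentage shared with the other list (bars, 95% interval) and percentage of sites of 1 kb or longer, by mean normalised count of the weaker gene for overlap sites (solid lines) and of the gene itself for 1-strand sites (dashed lines), in both lists. Overlap sites rose from 29.8% to 64.8% shared in the DMSO list, while 1-strand sites reached 40.9%.

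More overlap sites lay in convergent pairs of genes than in any other arrangement. Tail-to-tail pairs made up 35.1% of the overlap sequence but carried 4644 DMSO and 4766 dieldrin sites, 52.9% and 53.0% of all overlap sites, at 175 and 180 per Mb. Nested pairs, 55.4% of the sequence, carried 3617 and 3694 at 86.3 and 88.1 per Mb. Head-to-head pairs, 9.48% of the sequence, carried 470 and 497 at 65.5 and 69.3 per Mb. A further 42 and 35 sites bridged neighbouring genes that did not overlap each other.

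Sharing was highest, at 73.8% (interval 58.0 to 86.1%) and 74.3% (56.7 to 87.5%), for the few sites that bridged neighbours. Sharing was 58.4% and 56.0% for tail-to-tail sites and 45.1% and 44.1% for nested sites. Bridging sites were long, with medians of 857 and 866 bp against 298 and 309 bp for tail-to-tail sites. Longer sites were shared more often in general, and the part of length here was not tested. In head-to-head pairs 199 of 470 DMSO and 199 of 497 dieldrin sites were shared. Taken over sites, the median mean of the weaker gene was 198 and 324 in head-to-head pairs. It was 102 and 102 in tail-to-tail and 17.4 and 15.6 in nested pairs. These medians describe the sites and not the sequence. Of the 7.17 Mb of head-to-head sequence, 3.03 Mb had a weaker mean under 1 and 1.85 Mb a weaker mean of 1 to 10. Where both means exceeded 1000, tail-to-tail sequence held 464 DMSO sites per Mb, nested 293 and head-to-head 201, as the plot by orientation shows. Sequence near starts is left out of the sites by rule, and in head-to-head overlaps this removes the part next to both promoters.

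**Figure D3:**
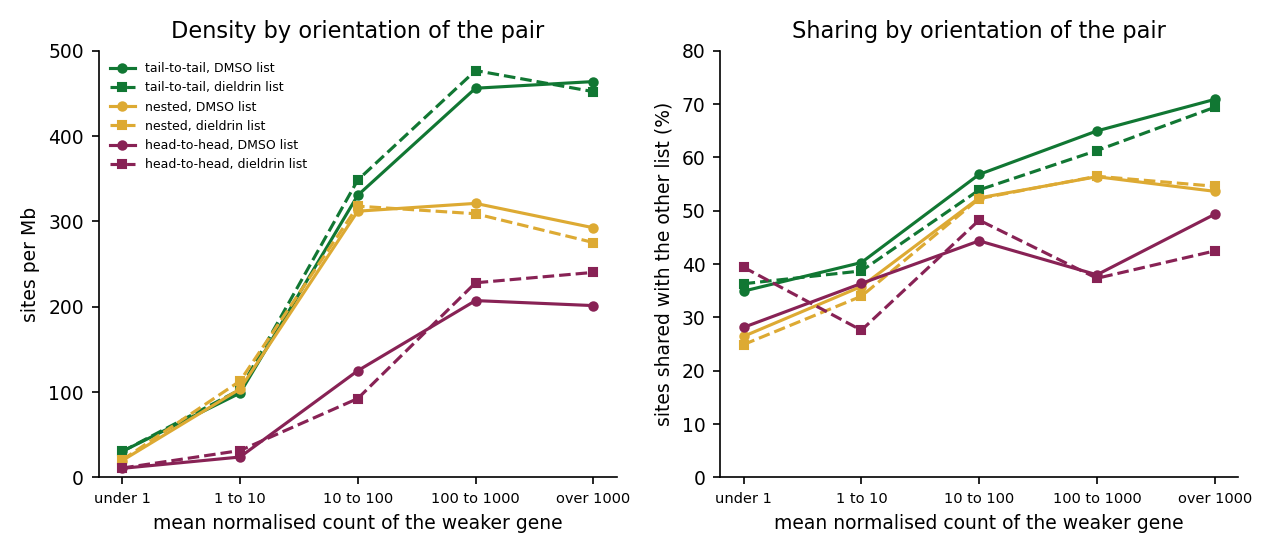
Sites per Mb (left) and percentage of sites shared with the other list (right) for tail-to-tail, nested and head-to-head gene pairs, by mean normalised count of the weaker gene, in the DMSO (solid) and the dieldrin list (dashed). Tail-to-tail pairs had the most sites per Mb in every class above a mean of 10 in both lists.

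Within tail-to-tail overlaps the sites were mostly internal. The median site lay in an overlap of about 20836 bp in the DMSO list and 21675 bp in the dieldrin list. Only 58 DMSO sites (1.25%) and 68 dieldrin sites (1.43%) spanned a whole overlap, and 38 and 42 of these were in overlaps of 300 bp or less. Sharing was 71.4% and 74.6% in those shortest overlaps and 51.5% and 47.9% in overlaps above 30000 bp. In overlaps above 3000 bp, sites were spread evenly along the overlap: each of 10 equal segments of its length held between 9.2 and 10.8% of the sites.

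Gene types were matched by identifier to GENCODE v29, which covered 2451 of the 2551 gene pairs in both genes. A coding gene with a long noncoding partner accounted for 4002 DMSO and 4187 dieldrin sites (45.6% and 46.6%), and a pair of coding genes for 3833 and 3795 (43.7% and 42.2%). Coding pairs were denser, at 209 and 207 against 92.1 and 96.4 sites per Mb, and were shared more often, at 56.1% and 54.7% against 48.3% and 46.1%. Their weaker gene was also more abundant, with medians of 625 and 603 against 17.5 and 17.4. Pairs whose annotated exons overlap on opposite strands held 62.9% and 62.8% of sites and shared 55.4% and 53.2% of them. Pairs without such exon overlap in v29 shared 45.4% and 44.1%, and their weaker gene was less abundant, with medians of 23.2 and 17.8 against 64.6 and 60.6.

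A strand imbalance ran through both lists; this split was chosen after its values were seen. The stronger gene was on the minus strand at 63.9% of DMSO overlap sites (interval 62.9 to 64.9%) and 64.2% of dieldrin overlap sites (63.2 to 65.2%). Minus-strand genes were the stronger ones over only 46.8% of the overlap sequence. All sites of a gene pair usually have the same stronger gene, and 204 pairs held 43.4% of the sites of both lists. The intervals treat sites as independent and are therefore too narrow for this share. In the DMSO list 159 sites per Mb lay under a stronger minus-strand gene and 78.7 per Mb under a stronger plus-strand gene, and in the dieldrin list 5771 and 3221 sites did. Sites under a minus-strand gene were also shared more often, at 55.6% and 53.4% against 46.1% and 44.7%. The imbalance was smaller where the 2 genes' means were within 10-fold of each other (54.7% and 55.7% minus) than where they were 10-fold or more apart (69.9% and 69.7%).

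In overlaps the minus share was above 50% in 21 of 23 chromosomes in each list, with lowest values of 47.4% and 43.8%. The imbalance was also seen outside overlaps. In genes of 1 strand, 72.6% of DMSO and 74.0% of dieldrin sites were in minus-strand genes, which made up 49.2% of that sequence, and the minus share was above 50% in all 23 chromosomes in both lists. Among genes of mean above 1000 the shares were 77.1% and 79.1%. For sites within 1 kb of a start the measure was another, the strand of the nearest gene start. That start was on the minus strand at 54.9% of 18595 DMSO and 55.4% of 18778 dieldrin sites. Sites with equally near starts on both strands were left out, and the minus share of all gene starts was not worked out. The site caller and its use of strand were not given in the sources used here, and the part of either in this imbalance was not tested.

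**Figure D4:**
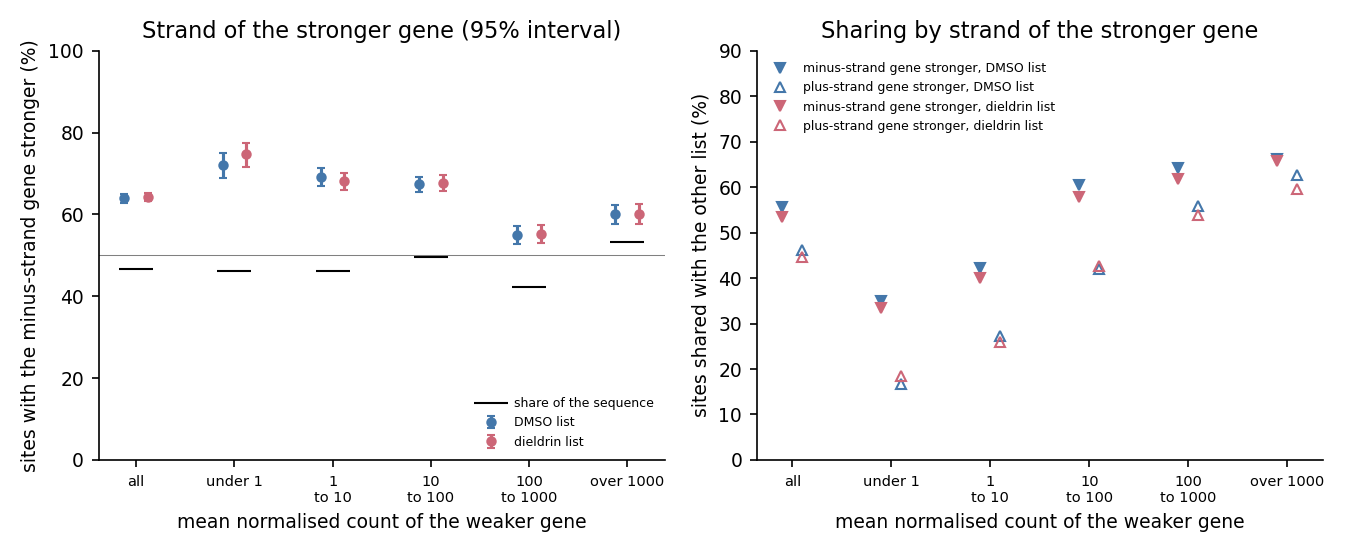
Percentage of overlap sites whose stronger gene is on the minus strand (left; bars, 95% interval; black lines, the percentage of overlap sequence with a stronger minus-strand gene) and percentage of sites shared with the other list by strand of the stronger gene (right), over all sites and by mean normalised count of the weaker gene. The minus share was 63.9% and 64.2% over all sites, against 46.8% of the sequence.

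The sites fell in 2551 pairs of genes, made of 4714 different genes. Of these pairs 1602 had sites in both lists, 472 in the DMSO list only and 477 in the dieldrin list only, and the pairs seen in 1 list had at most 8 sites. In 766 pairs there was a single site, while the 204 pairs with 20 or more sites held 43.4% of all sites. Counted from the annotation, 6578 pairs had overlap sequence beyond 1 kb from starts and 37.8% of them had a site. That share was 15.4% where the weaker gene had a mean under 1, 737 of 1474 pairs at 1 to 10, and 66.4%, 68.5% and 65.7% in the classes above.

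The pair with the most sites was RORA with its antisense partner RP11-219B17.1 on chromosome 15. RORA (ENSG00000069667), a nuclear receptor of the retinoic acid receptor-related orphan family, runs on the minus strand from 60780483 to 61521518 in hg19, and RP11-219B17.1 (ENSG00000245534), a long noncoding gene, on the plus strand from 60771377 to 60922836. The means in the authors' deposited table were 748 for RORA and 46.9 for RP11-219B17.1. The overlap held 98 DMSO and 103 dieldrin sites, of which 81 and 72 were shared, and its longest, of 2243 bp, lay at chr15:60791424-60793666 in the dieldrin list.

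IQCH and IQCH-AS1, also on chromosome 15, followed with 85 DMSO and 113 dieldrin sites, of which 56 and 58 were shared. Here the antisense gene was the stronger in the authors' deposited table, at a mean of 658 against 274. On chromosome 2, TTN, which encodes the giant muscle protein titin, and its antisense gene TTN-AS1 held 58 and 55 sites over 248687 bp of overlap. The antisense gene was again the stronger, at 668 against 102 for TTN in the authors' deposited table, and the longest site, 4935 bp at chr2:179435093-179440027, was in the dieldrin list.

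Pairs of abundant coding genes made up part of the rest. CLTA, a clathrin light chain, with GNE, the enzyme that starts sialic acid synthesis, nested within it, had 48 DMSO and 47 dieldrin sites. The tail-to-tail pair MTFR1 and PDE7A, the latter a cyclic AMP phosphodiesterase found in T cells, had 43 and 51, with means of 2325 and 4545 in the authors' deposited table. CGGBP1, a protein that binds CGG repeats, and the RP11-159G9.5 gene nested in it had 52 and 44, AAMDC with RP11-91P24.7 had 42 and 39, and XRRA1 with RP11-147I3.1 had 42 and 38. All 8 leading pairs had sites in both lists in similar numbers, the widest gap being that of IQCH.

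The 8 pairs with the most abundant weaker gene held between 1 and 53 sites over both lists. RPL28, a ribosomal protein, and UBE2S, a ubiquitin-conjugating enzyme of the anaphase-promoting complex, had means of 94840 and 43379 in the authors' deposited table. They overlap by 1961 bp on chromosome 19, which held 4 DMSO and 3 dieldrin sites, all 7 shared. RALY, an RNA-binding protein, and EIF2S2, the beta subunit of initiation factor eIF2, overlap by 20011 bp and held 30 and 23 sites. PMPCB, of the mitochondrial processing peptidase, and DNAJC2, a ribosome-associated chaperone, held 14 and 10, of which 12 and 10 were shared.

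Some of these sites crossed the point where genes of opposite strands meet. HMHA1 and POLR2E, a subunit common to the nuclear RNA polymerases, overlap by 34 bp, and a site of 2172 bp in the DMSO list (chr19:1085657-1087828) and one of 2171 bp in the dieldrin list covered it with the same start. SPTAN1, a spectrin, and WDR34 overlap by 2 bp, covered by a site of 756 bp in the dieldrin list that touched a DMSO site not counted in the pair. SRRM2, a splicing scaffold, and TCEB2, elongin B, had a single dieldrin site of 686 bp. EIF2A and SERP1, a nested pair, had 6 and 4 sites, the longest of 3451 bp at chr3:150301126-150304576 in the DMSO list.

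The longest sites joined convergent genes. A dieldrin site of 17840 bp at chr9:100431912-100449751 ran from NCBP1, of the nuclear cap-binding complex, into XPA, a nucleotide excision repair factor, which do not overlap each other. It touched a site of the DMSO list. In the DMSO list the longest, of 11651 bp, lay at chr10:14940159-14951809 between SUV39H2, a histone H3 lysine methyltransferase, and DCLRE1C, the nuclease Artemis. This DMSO site was not shared, nor was the dieldrin site of 11632 bp over FAM118B and SRPR, the latter a subunit of the signal recognition particle receptor. SCAND2P and WDR73 were bridged in both lists, by a DMSO site of 10723 bp and a dieldrin site of 10044 bp that overlap each other. RNF169 and XRRA1 held a DMSO site of 8704 bp among 14 sites, against 5 in the dieldrin list.

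Numbers per pair were close between the lists, as the plot of sites per pair shows. Of the 204 pairs with 20 or more sites, 107 had more in the dieldrin list, 76 more in the DMSO list and 21 the same number, beside a dieldrin list that was the longer one by 8992 to 8773. In 6 pairs the counts differed by more than 2-fold. COL4A3, a collagen chain of basement membranes, with AC097662.2 had 21 DMSO and 50 dieldrin sites, and ITGA6, an integrin, with AC093818.1 had 10 and 23. NAV1 with IPO9-AS1 had 9 and 21, and KIF3A, a kinesin motor, with AC004237.1 had 7 and 16. PALLD, an actin-associated protein, with CBR4 had 37 and 15. None of these genes was called as changed by dieldrin in the authors' deposited table, where AC004237.1 had no adjusted p and so could not be called.

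**Figure D5:**
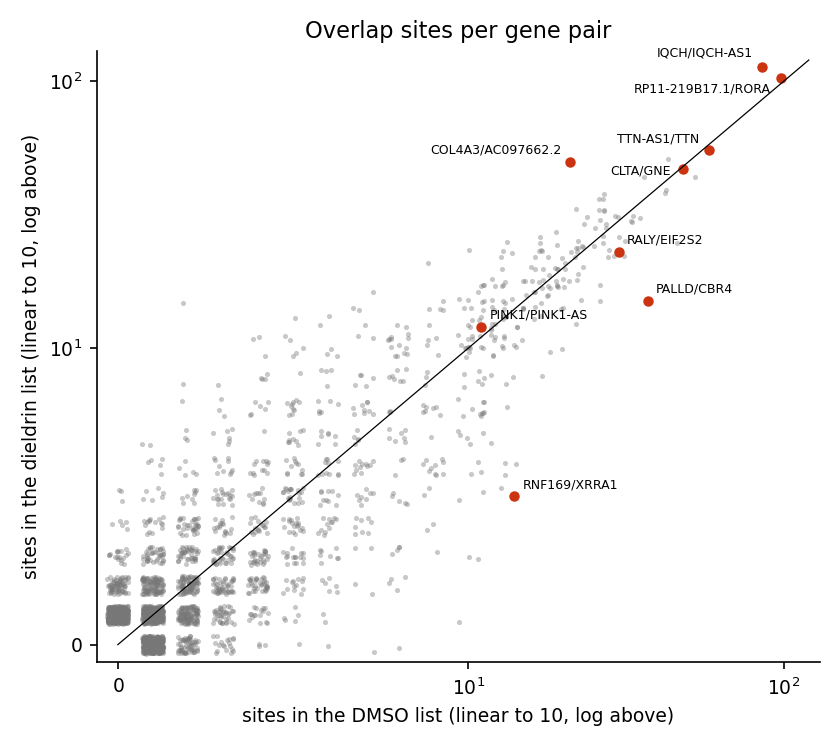
Overlap sites per gene pair in the DMSO list (horizontal) against the dieldrin list (vertical), both axes linear to 10 and logarithmic above, with points moved at random by up to 0.3 so that equal counts can be seen, and the line of equal numbers. Most pairs lie near the line, with COL4A3/AC097662.2 at 21 and 50 above it and PALLD/CBR4 at 37 and 15 below it.

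Few genes with overlap sites changed with either treatment. With dieldrin, by the authors' deposited table, 2.30% of genes with an adjusted p were called at an adjusted p under 0.05, 1.28% higher and 1.02% lower. Of the 4714 genes with overlap sites, 3629 had an adjusted p and 63 (1.74%) were called, 29 higher and 34 lower. With PMA, by the authors' deposited table, 0.619% of genes with an adjusted p were called, 0.528% higher and 0.0908% lower, and of 3419 tested genes with overlap sites 11 (0.322%) were called, 8 higher and 3 lower. Both tables share their DMSO libraries. The median log2 change was 0.00 for these genes and for all genes, with either treatment.

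Sites in the pairs with a called gene were few and changed little in number. The 30 pairs with a gene higher after dieldrin held 94 DMSO and 105 dieldrin sites, the 38 with a gene lower 130 and 142, and the 2483 with no called gene 8549 and 8745. These site numbers rest on 1 library each. No pair held a gene called higher opposite a gene called lower. In 1 pair both were higher in the authors' deposited table. MYADM, a membrane protein named as a myeloid differentiation marker, was 1.996-fold higher (adjusted p = 2.75e-29). Its antisense gene AC008753.6 was 5.22-fold higher (adjusted p = 0.000419). AC008753.6 had a mean of only 22.8, against 6076 for MYADM, and its shrunken log2 change was 0.341. The use of strand in counting was not stated, so the part of MYADM reads in the AC008753.6 change is unknown. The pair had a single overlap site, of 172 bp, in the dieldrin list. That site touched a DMSO site that was not itself counted in the pair.

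Among the most firmly called genes, DUSP1, a phosphatase that switches off MAP kinases, was 6.59-fold higher with dieldrin (adjusted p = 6.3e-106) and 2.40-fold higher with PMA (adjusted p = 2.16e-20) in the authors' deposited table. It lies wholly inside the antisense gene RP11-779O18.3, which had a mean of only 2.60 in the authors' deposited table, and the pair had 1 DMSO and 3 dieldrin sites. DNAJB1, a heat shock protein 40 chaperone, was 3.22-fold higher with dieldrin (adjusted p = 2.19e-11) in the authors' deposited table. Its neighbour TECR, an enzyme of very-long-chain fatty acid synthesis, overlaps it head-to-head and was at 0.991-fold, and the pair had 5 DMSO and 3 dieldrin sites. The number of sites thus went up beside DUSP1 and down beside DNAJB1, in each case by 2.

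TAGAP, a GTPase-activating protein of activated T cells, was 2.01-fold higher with dieldrin in the authors' deposited table (adjusted p = 7.99e-13), with 8 DMSO and 10 dieldrin sites opposite RP1-111C20.4. SMAP1, an Arf GTPase-activating protein, was 1.83-fold higher (adjusted p = 7.62e-17), with a single DMSO site opposite B3GAT2. Lower genes included ATP13A2, a lysosomal polyamine transporter, at 0.389-fold (adjusted p = 5.67e-16), with 2 and 5 sites, and WRB, a receptor for tail-anchored membrane proteins, at 0.610-fold (adjusted p = 1.49e-13), with 10 and 10, both by the authors' deposited table. Apart from MYADM, the opposite-strand partners of these genes were not called in the authors' deposited table or, for the partners of DUSP1 and ATP13A2, had no adjusted p.

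With PMA, MAP3K14, the kinase that drives the noncanonical NF-κB pathway, was 1.66-fold higher (adjusted p = 1.39e-05) in the authors' deposited table, and was also called with dieldrin, at 1.83-fold (adjusted p = 5.31e-09). Its overlap with MAP3K14-AS1 had 1 site in each list, neither shared. ELMSAN1, a partner of histone deacetylases, was 1.64-fold higher with PMA (adjusted p = 3.23e-07) and 1.42-fold higher with dieldrin (adjusted p = 0.00108) in the authors' deposited table, and had a single DMSO site. GPR84, a receptor for medium-chain fatty acids, was 2.80-fold higher with PMA (adjusted p = 6.3e-06) and had a single dieldrin site, by the authors' deposited table.

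The gene lists were read beside all genes, of which 4714 of 44194 (10.7%) had an overlap site. These shares were not tested and not matched for abundance. Of pairs with overlap sequence, 15.4% had a site at a weaker mean under 1 and 66.4% at 10 to 100. Of 28 genes of T cell receptor signalling 8 (28.6%) had an overlap site, in 9 pairs with 34 DMSO and 38 dieldrin sites. None of the 8 was called with either treatment in the authors' deposited table. Over all genes with an adjusted p, 2.30% were called with dieldrin and 0.619% with PMA, so a list of 8 cannot be told from those shares. PTPN22, a phosphatase that restrains receptor signalling, had 16 and 22 sites opposite RP5-1073O3.2, a gene with a mean of 3.73 in the authors' deposited table. RASGRP1, an activator of Ras, had 10 and 10 opposite RP11-275I4.1, and MALT1, a protease of the NF-κB pathway, had 1 and 3 opposite RP11-126O1.4. In each case the partner's mean was under 5 in poly(A) RNA.

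Of 20 transcription factors and recombination genes of T cell leukaemia 5 had overlap sites, against 10.7% of all genes, again not matched for abundance. TAL1, the leukaemia-associated helix-loop-helix factor, had 3 sites in each list opposite RP1-18D14.7, all 6 shared. The recombinase genes RAG1 and RAG2, which face each other tail-to-tail, had 4 DMSO sites and 1 dieldrin site, none shared, and RAG1 was at 0.566-fold with dieldrin (adjusted p = 0.0374) in the authors' deposited table. RUNX1 had 1 site in each list opposite AF015262.2.

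Of 32 immediate-early genes 3 (9.38%) had overlap sites, DUSP1, FOSB and EGR3, near the share of all genes. FOSB, a subunit of AP-1 nested opposite the repair gene ERCC1, had 2 DMSO sites and none in the dieldrin list. The authors' deposited table gave FOSB a 141-fold higher level with dieldrin and EGR3, a zinc-finger factor, a 58.4-fold higher one, in both cases with no adjusted p, so neither counts as called. EGR3 had a single dieldrin site opposite RP11-459E5.1. Of 14 heat shock genes 2 (14.3%) had sites, DNAJB1 and HSPD1, the mitochondrial chaperonin; HSPD1 had 2 DMSO sites and 1 dieldrin site opposite HSPE1-MOB4.

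Antisense genes by name were a larger group. Of 812 genes with symbols ending in AS and an optional number, 206 (25.4%) had overlap sites, against 10.7% of all genes. They lay in 233 pairs with 945 DMSO and 1036 dieldrin sites, of which 50.2% and 46.4% were shared. An antisense name marks a gene opposite another, and an overlap site needs genes of both strands by rule. The share therefore partly follows from the naming and cannot be read against that of all genes. Of 129 tested, 1 was higher and 0 lower with dieldrin in the authors' deposited table, and with PMA 0 of 112 were called. Over all genes with an adjusted p, 1.28% were higher and 1.02% lower with dieldrin, and 0.619% were called with PMA. Counts this small cannot be told from those shares. FAM222A with FAM222A-AS1 had 35 and 31 sites. Of 679 genes named as intergenic, intronic or overlapping noncoding transcripts 20 (2.95%) had overlap sites, a share that the naming limits in the same way. Among them were LINC00174 opposite TPST1 with 6 and 7, LINC01004 opposite RP11-325F22.2 with 3 and 7, and LINC00176 opposite ZNF512B with 4 and 3.

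Of 14 overlapping pairs known from textbooks 12 had both genes in the table and 4 had a site, beside 37.8% of all pairs with overlap sequence. The 12 were not required to have overlap sequence beyond 1 kb from starts, so the 2 shares are not like for like. PINK1, a mitochondrial quality-control kinase, with PINK1-AS had 11 DMSO and 12 dieldrin sites, of which 10 and 11 were shared, at means of 2688 and 814 in the authors' deposited table. HIF1A, the hypoxia-inducible factor, with HIF1A-AS2 had 7 and 8. The nuclear receptor genes THRA and NR1D1, which overlap by 1081 bp at their 3′ ends on chromosome 17, had 1 site in each list, overlapping each other, of 1539 bp (chr17:38249129-38250667) and 967 bp. FGF2, a growth factor whose mean was only 1.64 in the authors' deposited table, with NUDT6 had a single DMSO site.

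Cell identity was checked on the poly(A) means of the authors' deposited table. Of 12 T cell markers 11 were found, all with means of at least 3642. Among markers of other cells, 1 of 5 B cell markers had a mean above 1000, at 2894, and the highest were 38.8 for myeloid, 1.89 for erythroid and platelet and 168 for fibroblast and epithelial markers. The poly(A) means are pooled over treatments and come from other libraries than the site lists. The authors' use of strand in counting was not stated in the labels, so a low mean opposite a far stronger gene carries an uncertain share of that gene's reads. In bulk RNA, fewer cells that make a transcript and less of it per cell cannot be told apart.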

How the data were processed

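Per the labels' protocols, RNA came from a phenol-chloroform extraction, and stranded paired-end libraries were either enriched for poly(A) RNA or depleted of ribosomal RNA. Tools named in the submitters' processing notes are STAR and edgeR, with the build hg19; settings, the site caller and the counting tool were not given in the sources used here. The site lists the authors deposited hold chromosome, start and end with no strand, height or score; positions are printed counted from 1. Per the file headers, the authors' tables hold, for each gene, a signal (the mean normalised count), a log2 fold change with and without shrinkage and its standard error, a score (the Wald statistic), a p-value and an adjusted p. Folds printed here are the unshrunken change. No values per library were used, so no model was fitted, depth is unknown and its precision cannot be given.

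Overlap sites were sites on 23 chromosomes more than 1 kb from every gene start of the table and touching gene bodies of both strands; territory was the sequence meeting the same rule. Sites on the Y chromosome and mitochondrial DNA were left out. Sites were shared when they had at least 1 bp in common with the other list. On each strand the gene of highest mean stood for the strand; 596 DMSO and 616 dieldrin sites had more than 1 gene on a strand. Intervals are exact Clopper-Pearson 95% intervals. Gene types and exons came from GENCODE v29, matched by gene ID for 41713 of 44416 genes; exon overlap was worked out within v29 and no v29 coordinates are printed. Site assignment was checked on 3000 simulated sites against a plain loop that applies the same rule, and all 3000 classes were equal. This checks the coding of the rule and not the rule itself. Sharing was tested on simulated sites with known shifted copies. Python 3.11.15, pandas 2.3.3, numpy 2.4.6, scipy 1.17.1, matplotlib 3.10.9 and, as a check, bedtools 2.31.1 were used.

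Named pairs were the 8 with the most sites, the 8 with the highest weaker mean, the 8 (dieldrin) and 4 (PMA) with the smallest adjusted p of a called gene, those holding the 3 longest sites of each list, textbook pairs, and up to 3 pairs per gene list; pairs differing by more than 2-fold were named after their values were seen. Some pairs that these rules name are not reported here. The sites, lists and rules were chosen with earlier results of these data known. Alternatives were other distances from a start, a minimum mean, the site midpoint, longer sites, other definitions of sharing, the gene of largest overlap and other thresholds.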

Additional observations from a re-analysis of the deposited data

How the results depend on the processing

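No paired analysis was possible because each site list comes from 1 library and the gene values are the authors' own comparisons; for the same reason no replicate could be left out. Values are given for the DMSO and then the dieldrin list. The share of the list in overlaps was 8.33% and 8.19% at more than 500 bp from a start, 6.90% and 6.82% at more than 2 kb, 5.44% and 5.28% with genes of mean 10 or more, 7.44% and 7.30% by midpoint, and 8.90% and 8.66% for sites of at least the median length, which left 5065 and 5152 overlap sites. Density was 119 and 122 sites per Mb at 500 bp, 112 and 115 at 2 kb, and 342 and 346 with genes of mean 10 or more. Median length was 307 and 318 bp with genes of mean 10 or more and 279 and 281 bp by midpoint. Sharing was 59.3% and 57.6% with genes of mean 10 or more, 63.0% and 60.8% for sites of at least the median length, 18.2% and 17.8% with a reciprocal overlap of 50%, and 79.7% and 77.9% within 1 kb. Sites in genes of 1 strand were shared less than overlap sites under each of these sharing settings. At an adjusted p under 0.01, 31 genes with overlap sites were called with dieldrin, 0.854% of those tested against 1.48% of all genes tested. The other 25 values moved within counting error or by less than 1.5-fold. Depth is unknown, so the absence of a site cannot be read as absence of transcription.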
